A study of Mus musculus with 14 samples.

Results

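The subject is a set of 40 genes whose products burn pyruvate and fatty acids in mitochondria, chosen by symbol from a fixed list. The list was drawn up with earlier results of these data known. All 40 were found among the 24386 genes listed for each library. They were read in 4 groups by role. These were 5 genes of pyruvate entry, 14 of the citric acid cycle, 7 of fatty acid uptake and transfer, and 14 of beta oxidation.

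The 14 libraries were made from poly(A) RNA of the tibialis anterior, a shin muscle that lifts the foot, of C57Bl/6 mice. At day 3 there were 4 libraries of follistatin-treated muscle and 3 of control muscle. The later set held 4 follistatin libraries (2 of day 7 and 2 of day 14) and 3 control libraries (2 of day 7 and 1 of day 14), which the study's design treats as 1 chronic comparison. Follistatin traps myostatin and activins, growth factors that hold back muscle mass. The headers abbreviate the control as MCS without explaining it. The labels give neither the route of treatment, what the controls received, the animals' age or sex, nor whether replicates came from separate animals, so a p-value here covers library-to-library spread, which may be technical.

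Pyruvate from glycolysis enters the mitochondrion and is turned into acetyl-CoA by the pyruvate dehydrogenase complex, which pyruvate dehydrogenase kinases switch off. Fatty acids are freed from lipoproteins at the vessel wall, taken up, bound to coenzyme A and carried into the mitochondrion as carnitine esters, where beta oxidation cuts them into acetyl-CoA. Both routes feed the citric acid cycle, which passes electrons to the respiratory chain. In skeletal muscle these genes are known to be most active in oxidative fibres, and the tibialis anterior of the mouse consists mostly of fast fibres.

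Values are FPKM, fragments per kilobase of transcript scaled by the authors to the fragments mapped in the library, so they can be set side by side between genes. Library FPKM summed to 364513 to 433552 in chronic follistatin libraries and 485755 to 510584 in chronic controls, and to 486377 to 515812 and 508717 to 532859 in the follistatin and control libraries of day 3. The number of reads was not given in the sources used here. In control day 7 replicate 1, 16158 genes had a value above 0, whereas the remaining chronic libraries had 19383 to 20283 and the day 3 libraries 15766 to 17161. Whether it was sequenced or processed apart from its set is not given in the sources used here. The treatment showed in the follistatin gene itself, Fst, at 367 to 1420 FPKM in chronic follistatin libraries and 0.808 to 1.17 FPKM in chronic controls, and at 49.7 to 67.8 against 1.01 to 1.42 FPKM at day 3. Of 8 muscle fibre markers, Acta1, Tnnt3, Mylpf, Pvalb and Ckm stood at 8829 FPKM or more in every day 3 library. Myh4 stood at 8989 FPKM or more in the day 3 controls but is listed at 0 in the day 3 follistatin libraries, and it was left out of the day 3 test. Acta1, Tnnt3, Myh4 and Myh1 are listed at 0 in every chronic library, and Mylpf and Ckm in every chronic follistatin library, where the authors' deposited table marks them as having too many reads to estimate, and no member of the set carries that mark.

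The 40 genes spanned a wide range of levels. In the controls of day 3 the mitochondrial malate dehydrogenase gene Mdh2 was the most abundant, at 865 ± 66 FPKM (SD, n = 3), and Suclg2 the least, at 17.4 ± 0.47 FPKM. Suclg2 encodes the GTP-forming subunit of succinyl-CoA ligase. Its ATP-forming counterpart Sucla2 stood at 358 ± 27 FPKM in the same libraries, so the ATP form was the more abundant mRNA of the pair. Next to Mdh2 came Fabp3, Idh3b, Mdh1, Cs, Idh3a and Idh3g, all between 402 and 478 FPKM, and these 6 did not differ beyond the spread of Fabp3.

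**Figure D1:**
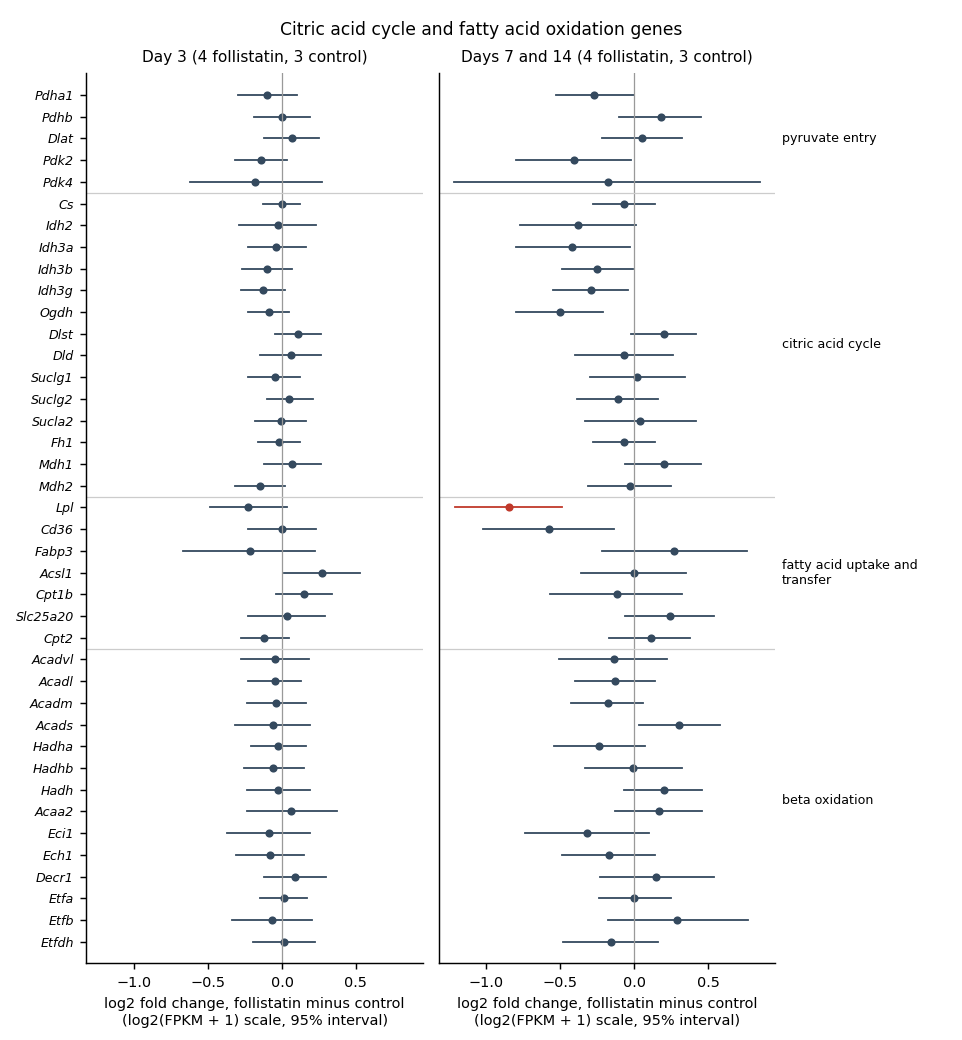
Log2 fold change, follistatin minus control, of the 40 genes at day 3 (left) and at days 7 and 14 (right), on the log2(FPKM + 1) scale, with 95% intervals from limma; genes run down the page by role. The red point is the 1 called gene, Lpl, at -0.85 in the chronic set; all day 3 points lie between -0.23 and 0.27.

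At day 3 none of the 40 genes passed the test. Limma's moderated test on log2(FPKM + 1), adjusted by Benjamini-Hochberg over all 11268 genes tested, called 0 of 40 at an adjusted p under 0.05, and 1.49% of all genes. At an unadjusted p under 0.05 it gave 1 of 40 (Acsl1), against 15.2% of all genes. The authors' deposited Cuffdiff table for day 3 also marks 0 of the 40, with 3.19% of the genes it tested lower and 3.06% higher. The median log2 fold change of the 40 was -0.03, with 12 above 0 and 28 below, beside 0.01 for all genes. Without control day 3 replicate 2 the tally turned, to 27 above 0 and 13 below with a median of 0.02. The median size of a change, without its sign, was 0.06 in the set and 0.12 over all genes. These sizes are not matched for level. The least abundant member averaged 17.4 FPKM in the day 3 controls, whereas genes down to a mean of 1 FPKM were tested.

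The intervals show how much change the day 3 libraries leave room for. The 95% intervals of all 40 genes lay within a 2-fold change either way, and those of 38 within 1.5-fold. The widest bounds were -0.67 for Fabp3 and 0.53 for Acsl1 on the log2 scale. The median distance from an estimate to its bound over the 40 was 0.2.

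In the chronic set 1 of the 40 genes was called lower, Lpl, and 0 were called higher. Over the 11047 genes tested, limma called 3.27% lower and 2.24% higher (361 and 247 genes), and the count of the set is therefore near the background. With libraries rescaled by their median ratio the split over all genes was 238 lower and 389 higher. The authors' deposited table marks Lpl and Cd36 as lower among the 40 and 0 as higher, with 11.2% of its tested genes lower and 6.64% higher. At an unadjusted p under 0.05, 8 members were lower and 1 higher, against 19.3% and 8.99% of all genes. All follistatin libraries lay below all controls for 7 members and above them for 2, against 21.5% and 8.96% of all genes. The 7 were Lpl, Ogdh, Idh3b, Idh3g, Idh2, Pdha1 and Acadm, and the 2 were Dlst and Acads.

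The median log2 fold change of the 40 in the chronic set was -0.07, beside -0.09 for all genes tested, with 15 above 0 and 25 below. After median ratio rescaling it was 0.04, with 21 above and 19 below. The direction of the tally therefore turns with the scaling. The 95% intervals of 37 of the 40 genes lay within a 2-fold change and those of 30 within 1.5-fold. Summed over the set, the level was 9142 ± 555 FPKM in follistatin libraries (n = 4) and 9505 ± 541 FPKM in controls (n = 3), a difference smaller than either SD.

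**Figure D2:**
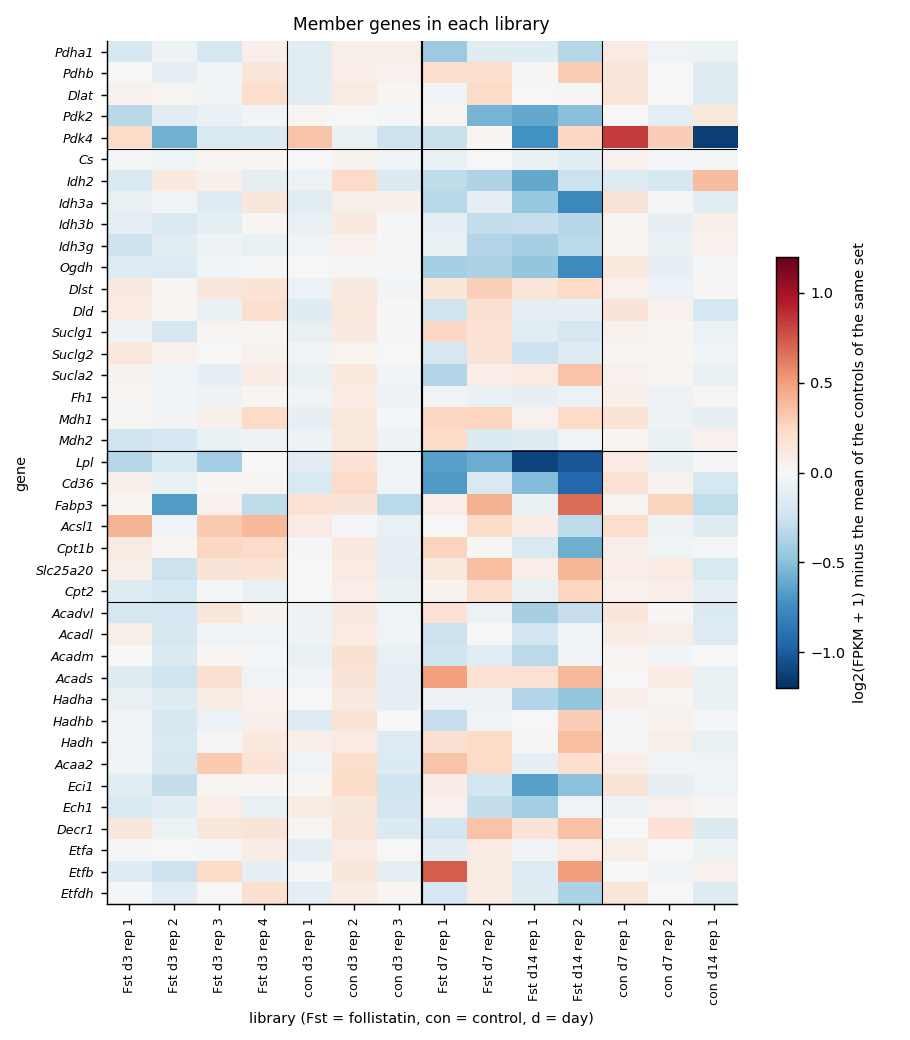
Level of each of the 40 genes (rows, by role) in each of the 14 libraries (columns), as log2(FPKM + 1) minus the mean of the controls of the same set (color, -1.2 to 1.2). The Lpl row is blue in all 4 chronic follistatin libraries (log2 fold change -0.85), and the Ogdh row is paler blue in the same 4 (-0.50).

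Lpl encodes lipoprotein lipase, the enzyme that releases fatty acids from circulating triglyceride, and was the 1 member that limma called in the chronic set. The follistatin libraries held 80.3 and 83.6 FPKM at day 7, then 58.3 and 61.6 FPKM at day 14, against 136 and 119.9 FPKM in the controls of day 7 and 125 FPKM in the control of day 14. All 4 follistatin libraries lay below all 3 controls, and both day 14 libraries lay below both of day 7. Mean levels were 70.9 ± 12.8 FPKM (SD, n = 4) and 127 ± 8.46 FPKM (n = 3), a ratio of 0.558. The log2 fold change came to -0.85 (SE 0.15, limma adjusted p = 0.0262), and -0.74 with median ratio rescaling (adjusted p = 0.0297). The authors' deposited table gives Lpl a log2 fold change of -0.86 with a q-value of 0.000894.

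The call of Lpl depended on which library was left out. It held without follistatin day 7 replicate 1 (limma adjusted p = 0.027), day 7 replicate 2 (0.0347) or day 14 replicate 2 (0.0438). The adjusted p by limma was 0.148 without control day 7 replicate 1, 0.0858 without control day 7 replicate 2 and 0.107 without control day 14 replicate 1. Without follistatin day 14 replicate 1 it was 0.0521, and with the day 7 libraries alone 0.202. Its log2 fold change stayed between -0.93 and -0.76 with any 1 library left out. Over all genes, 361 calls lower became 20 to 75 without 1 of the controls. At day 3 Lpl stood at 117, 131, 112 and 149 FPKM with follistatin and 135, 168 and 145 FPKM in controls, and these groups overlapped. The day 3 log2 fold change was -0.23 (adjusted p = 0.398), and the change from early to late, tested as an interaction, was -0.62 (adjusted p = 0.222). Lpl lies on chromosome 8 of mm10, from 68880491 to 68907448 on the plus strand, and shares no exon base with another gene in GENCODE M21.

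Cd36, a fatty acid transporter of the muscle membrane and of capillary endothelium, was lower in the chronic means but was not called by limma. Follistatin libraries held 85.3 and 121 FPKM at day 7, then 95.6 and 70.7 FPKM at day 14, against 155 and 141 FPKM in the controls of day 7 and 118 FPKM in the control of day 14. Follistatin day 7 replicate 2 lay above the day 14 control, so the groups overlapped. Limma gave -0.58 on the log2 scale (SE 0.19, adjusted p = 0.102). In the authors' deposited table the value is -0.59, with a q-value of 0.01. At day 3 the means were 144 ± 6.71 FPKM with follistatin (n = 4) and 145 ± 21.7 FPKM in controls (n = 3).

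Most markers of vessels, and some other genes that handle lipid outside the fibre, had lower chronic values beside Lpl and Cd36. The 10 endothelial markers summed to 105 to 163 FPKM in chronic follistatin libraries and 178 to 232 FPKM in chronic controls. Of the 10, 9 had a log2 fold change below 0 (median -0.54), and limma called 1, the angiopoietin receptor gene Tek. The vessel marker Cldn5 lay above 0, at 0.17. Over all genes tested, 6719 of 11047 lay below 0 with a median of -0.09, and 3.27% were called lower. At day 3 the sum of the 10 endothelial markers was 146 to 171 FPKM with follistatin and 177 to 192 FPKM in controls. Their median log2 fold change at day 3 was -0.19. The day 3 intervals from limma, -0.23 to 0.23 for Cd36 and -0.49 to 0.03 for Lpl, both included that median. Whether Cd36 or Lpl differed from these markers at day 3 was not tested. The 8 adipocyte markers summed to 219 to 389 FPKM in chronic follistatin libraries and up to 492 FPKM in chronic controls, with every follistatin library below every control, of which Fabp4, also an endothelial gene, was 211 to 352 and 369 to 478 FPKM. None of the adipocyte markers tested was called, and the fat-cell hormone gene Adipoq lay at 0.677 to 4.06 FPKM against 2.01 to 4.8 FPKM. Gpihbp1, which carries lipoprotein lipase across the capillary wall, stood at 30.7 ± 8.17 and 38.2 ± 3.13 FPKM (adjusted p = 0.272). It is on a list of 18 further genes of fatty acid uptake and transfer, of which 14 lay below 0 and 4 above. Among those above was Angptl4, at 4.8 ± 2.15 and 2.88 ± 1.6 FPKM (0.59, adjusted p = 0.368). The list of slow fibre markers summed to 68 to 138 FPKM against 139 to 254 FPKM, but it includes Myh2, the myosin of fast oxidative fibres, at 13.5 to 59 FPKM against 82.4 to 172 FPKM, a gene left out of the chronic test because it carries the mark for too many reads. Without Myh2, a choice made after seeing the data, the sums overlapped, at 44.4 to 79.1 FPKM against 56.4 to 112 FPKM. Limma called 0 of the 6 slow fibre markers tested. Of the 8 muscle fibre markers only Mb, the myoglobin gene, entered the chronic test, and limma called it lower (-2.04, adjusted p = 0.0148). It held 525 to 1406 FPKM with follistatin and 3013 to 4294 FPKM in controls. At day 3 it held 1812 to 2519 FPKM and 3154 to 4537 FPKM (adjusted p = 0.0647). The 8 macrophage markers summed to 35.1 to 96.9 FPKM against 21.3 to 49.9 FPKM. Fewer cells of a type and less RNA per cell cannot be told apart in bulk muscle, and the part of these cell types in the values of Lpl, Cd36 and the regulators described further on was not tested.

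Beyond the membrane, the chain that carries fatty acids to the mitochondrion was not called at either time. Fabp3, the fatty acid binding protein of muscle cytosol, had 847 and 1077 FPKM at day 7, then 758 and 1279 FPKM at day 14 with follistatin, against 820.1 and 967 FPKM in the controls of day 7 and 653 FPKM in the control of day 14. The groups overlapped, and the log2 fold change was 0.27 (adjusted p = 0.417). Cpt1b, the muscle carnitine palmitoyltransferase that commits fatty acids to oxidation, stood at 129 ± 31.5 FPKM with follistatin and 138 ± 5.62 FPKM in controls of the chronic set. Its reads may be shared, since 2744 of its 3372 exon bases also belong to Gm44502 on the same strand. Slc25a20, the carnitine carrier of the inner membrane, had a log2 fold change of 0.24 (95% interval -0.06 to 0.54, adjusted p = 0.265), and Cpt2, which takes the carnitine off again, 0.11.

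Acsl1, the main long-chain acyl-CoA synthetase of muscle, was the 1 member past an unadjusted 0.05 at day 3. It held 161, 118, 151 and 159 FPKM with follistatin and 129.8, 120.3 and 114 FPKM in controls. Replicate 2 of the follistatin group lay inside the control range. Limma's estimate at day 3 was 0.27 on the log2 scale (SE 0.11, adjusted p = 0.314). At the later days both groups averaged 115 FPKM.

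**Figure D3:**
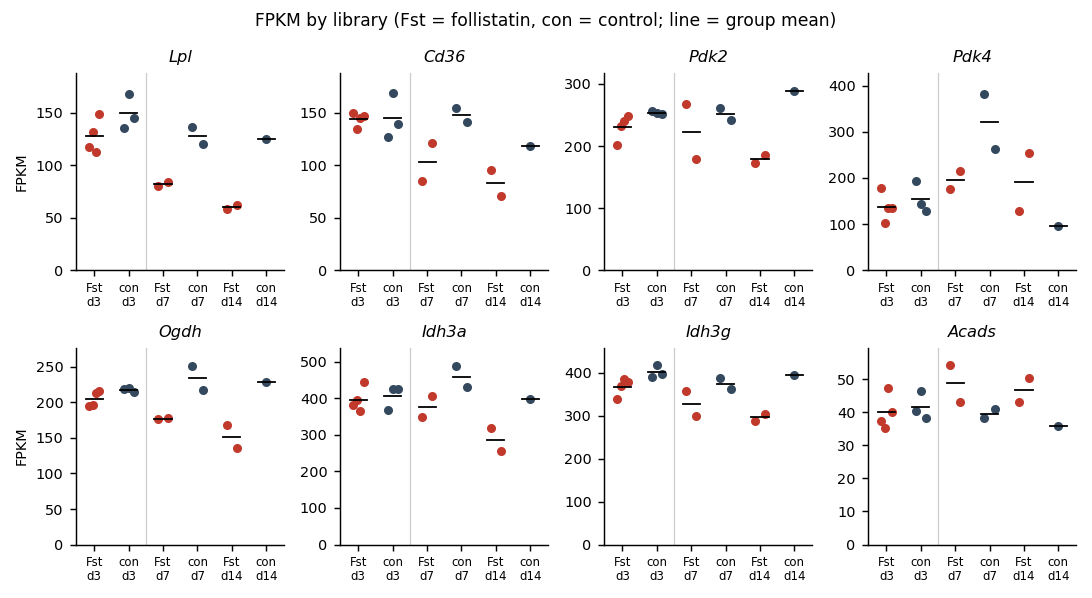
FPKM (linear axis from 0) in each library for 8 of the genes; red points are follistatin libraries, dark points control libraries, and lines group means, with day 3 left of the grey line and days 7 and 14 right of it. Lpl separates the groups at days 7 and 14, at 58.3 to 83.6 FPKM with follistatin and 119.9 to 136 FPKM in controls, whereas the Pdk4 libraries of days 7 and 14, at 128 to 254 FPKM with follistatin and 96.7 to 381 FPKM in controls, overlap.

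For pyruvate entry, limma called 0 of 5 genes at either time. Pdha1 and Pdhb encode the subunits of the first enzyme of the pyruvate dehydrogenase complex and Dlat its acetyl-carrying core. At the later days Pdha1 stood at 297 and 363 FPKM at day 7, then 364 and 317 FPKM at day 14 with follistatin, against 432 and 390.3 FPKM in the controls of day 7 and 387 FPKM in the control of day 14. The groups did not overlap, and the log2 fold change came to -0.27 (SE 0.11, adjusted p = 0.172). Pdha1 shares 603 of its 3734 exon bases with Map3k15 on the opposite strand. Its partner Pdhb had 301 ± 25 FPKM with follistatin and 266 ± 27.7 FPKM in controls (0.18, adjusted p = 0.348), and Dlat 88.2 ± 7.83 and 85.2 ± 8.68 FPKM. The 3 subunits of the complex thus had values on both sides of 0 and none passed the test.

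The kinases that switch the complex off were the more variable part of this group. Pdk2, the widely expressed isoform, had 267 and 179 FPKM at day 7, then 172 and 186 FPKM at day 14 with follistatin, against 262 and 242 FPKM in the controls of day 7 and 288 FPKM in the control of day 14. Follistatin day 7 replicate 1 lay among the controls and the other 3 below them. Limma gave -0.41 on the log2 scale (SE 0.17, adjusted p = 0.159), and without follistatin day 7 replicate 1 -0.56 (adjusted p = 0.0311). Leaving out that library also raised the calls lower over all genes from 361 to 512. Pdk2 was not called with any other library left out. At day 3 Pdk2 held 202, 232, 240.4 and 248 FPKM with follistatin and 256, 254 and 252 FPKM in controls. It was 1 of 2 members, with Idh3g, whose day 3 follistatin libraries all lay below the controls, against 6.8% of all genes, and 0 lay above, against 8.31% (Pdk2 adjusted p = 0.436).

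Pdk4, the isoform induced by fasting, varied more between libraries than between treatments. It held 177 and 216 FPKM at day 7, then 128 and 254 FPKM at day 14 with follistatin, against 381 and 262 FPKM in the controls of day 7 and 96.7 FPKM in the control of day 14. The lowest and the highest chronic library were both controls. Its log2 fold change was -0.18 with a 95% interval of -1.22 to 0.85, the widest of the 40, so these libraries do not settle its direction. At day 3 it stood at 178, 102, 134 and 135 FPKM with follistatin and 193, 143 and 128 FPKM in controls.

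In the citric acid cycle limma called 0 of 14 genes at either time. At day 3 the median of the 14 was -0.02 and all intervals lay between -0.32 and 0.26. In the chronic set the median was -0.07, with 4 genes above 0 and 10 below, or 8 above and 6 below with median ratio rescaling. Cs, citrate synthase, the usual marker of mitochondrial content, held 443 ± 16.9 FPKM with follistatin and 465 ± 13.7 FPKM in controls of the chronic set (-0.07, 95% interval -0.28 to 0.14). Fh1, fumarase, held 233 ± 3.69 and 245 ± 11.1 FPKM. Mdh2 held 929 ± 122 and 946 ± 42.9 FPKM, and the cytosolic malate dehydrogenase gene Mdh1 515 ± 33.1 and 449.6 ± 45.7 FPKM.

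Ogdh had the lowest log2 fold change of the cycle in the chronic set. It encodes the first enzyme of the 2-oxoglutarate dehydrogenase complex. It stood at 176 and 178 FPKM at day 7, then 168 and 136 FPKM at day 14 with follistatin, against 251 and 217 FPKM in the controls of day 7 and 229 FPKM in the control of day 14. All 4 follistatin libraries lay below all controls. Its log2 fold change came to -0.50 (SE 0.13, 95% interval -0.80 to -0.21), which missed the threshold with an adjusted p = 0.0599, and it was -0.39 with median ratio rescaling (adjusted p = 0.1). The authors' deposited table gives -0.51 with a q-value of 0.0504, also not marked. The change from early to late was -0.42 (adjusted p = 0.229).

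The partner of Ogdh in the complex, Dlst, its succinyl-carrying core, stood on the other side of 0. It held 213 and 236 FPKM at day 7, then 214 and 229 FPKM at day 14 with follistatin, against 201 and 185 FPKM in the controls of day 7 and 196 FPKM in the control of day 14. Here all follistatin libraries lay above all controls, with a log2 fold change of 0.20 (SE 0.10, adjusted p = 0.215). Dld, the dehydrogenase shared by this complex and that of pyruvate, held 178 ± 23.3 and 187 ± 23.9 FPKM. The ratio of the complex's mRNAs was chosen for description after its values were seen and was not tested.

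The 3 genes of the NAD-dependent isocitrate dehydrogenase all had negative values in the chronic set, and none was called. With all 14 libraries in 1 fit limma called all 3 lower, but that fit called 1458 of 11306 genes lower, against 361 of 11047 in the reported fit. With quantile normalization it called Idh3g (adjusted p = 0.0437). Idh3a, the catalytic subunit, held 348 and 406 FPKM at day 7, then 318 and 255 FPKM at day 14 with follistatin, against 487 and 431 FPKM in the controls of day 7 and 398 FPKM in the control of day 14. Follistatin day 7 replicate 2 lay above the day 14 control. Limma gave -0.42 on the log2 scale (SE 0.17, adjusted p = 0.151). The regulatory subunit gene Idh3g held 357 and 299 FPKM at day 7, then 288 and 304 FPKM at day 14 with follistatin, against 388 and 361 FPKM in the controls of day 7 and 394 FPKM in the control of day 14, with no overlap (-0.29, adjusted p = 0.137). Idh3b stood at 379 ± 28 and 452 ± 26.5 FPKM (-0.25, adjusted p = 0.159). Idh2, the NADP-dependent mitochondrial enzyme, stood at 50.9 ± 5.44 and 67.6 ± 16 FPKM (-0.38, adjusted p = 0.181). At day 3 Idh3g had the smallest p of the cycle, with 338, 368, 385 and 379 FPKM with follistatin and 391, 418 and 398 FPKM in controls (-0.13, adjusted p = 0.387).

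The succinyl-CoA ligase genes showed no common direction. Sucla2 ranged from 269 to 433 FPKM with follistatin and from 322 to 356 FPKM in controls of the chronic set. The shared subunit gene Suclg1 held 283 ± 43.3 and 277 ± 12.6 FPKM, and Suclg2 23.1 ± 3.13 and 24.9 ± 0.731 FPKM. These groups overlapped in each of the 3 genes.

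In beta oxidation limma called 0 of 14 genes at either time, and the summed level hardly differed. It was 2094 ± 173 FPKM with follistatin and 2112 ± 81.1 FPKM in controls of the chronic set, and 2001 ± 151 and 2047 ± 173 FPKM at day 3. At day 3 all 14 log2 fold changes lay between -0.09 and 0.09, with intervals inside -0.37 to 0.37. Of these 4 were above 0 and 10 below, against 13 and 1 without control day 3 replicate 2. At the later days 6 were above 0 and 8 below, with a median of -0.07, and 7 and 7 with median ratio rescaling.

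The acyl-CoA dehydrogenases, which open each turn of beta oxidation, act on different chain lengths, and none was called. Acadvl (very long chain) had a chronic log2 fold change of -0.14, Acadl (long) -0.13, Acadm (medium) -0.18 and Acads (short) 0.30. Acads held 54.2 and 43.2 FPKM at day 7, then 43.2 and 50.4 FPKM at day 14 with follistatin, against 38.2 and 40.9 FPKM in the controls of day 7 and 35.9 FPKM in the control of day 14. All 4 lay above all controls, but the gene was not called (SE 0.12, adjusted p = 0.144), and at day 3 its groups overlapped, at 35.2 to 47.2 FPKM with follistatin and 38.3 to 46.5 FPKM in controls. Acadm held 154 and 166 FPKM at day 7, then 145 and 177 FPKM at day 14 with follistatin, against 186 and 178 FPKM in the controls of day 7 and 182 FPKM in the control of day 14 (adjusted p = 0.282). Acadvl shares 1151 of its 2686 exon bases with Dvl2 on the opposite strand.

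The mitochondrial trifunctional protein, which carries out the remaining steps for long chains, is built from Hadha and Hadhb. Hadha held 119.8 and 120.4 FPKM at day 7, then 98.7 and 91.2 FPKM at day 14 with follistatin, against 131 and 129 FPKM in the controls of day 7 and 118 FPKM in the control of day 14. Both day 7 follistatin libraries lay above the day 14 control, and the log2 fold change was -0.24 (adjusted p = 0.273). Hadhb averaged 249 ± 40.9 FPKM with follistatin and 248 ± 6.57 FPKM in controls. Hadh and Acaa2, which serve shorter chains, had log2 fold changes of 0.20 and 0.17 (adjusted p = 0.287 and 0.404).

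The auxiliary enzymes for unsaturated fatty acids were uncalled as well. Eci1, an enoyl-CoA isomerase, had the lowest value of beta oxidation in the chronic set. It held 111 and 88.9 FPKM at day 7, then 66.2 and 74.1 FPKM at day 14 with follistatin, against 116 and 97.2 FPKM in the controls of day 7 and 101 FPKM in the control of day 14 (-0.32, adjusted p = 0.275). Ech1 stood at -0.17 and Decr1, a dienoyl-CoA reductase, at 0.15. Of the electron transfer proteins that pass electrons to the respiratory chain, Etfa held 188 ± 14.7 and 187 ± 8.53 FPKM and Etfdh 79.1 ± 11 and 88.2 ± 9.22 FPKM. Etfb ranged from 183 to 338 FPKM with follistatin and from 198 to 212 FPKM in controls. Of its 1164 exon bases, 617 also belong to Gm45233 on the same strand.

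Promoter windows of 250 bases before to 50 bases after a RefSeq start (GRCm38.p6, the build of mm10) were found for 35 of the 40 genes. The letters AAGGTCA, an element bound by estrogen-related receptors, which drive many genes of this kind, were in a window of 2 of the 35 (Acadm and Ogdh) and of 5.38% of the 27025 genes with a window, searching both strands. The letters CACGTG, an E-box, were in 2 (Ogdh and Pdk2) and in 8.09% of all. The direct repeat AGGTCANAGGTCA, read by PPAR with RXR, contains the receptor element AAGGTCA when N, which may be any base, is A or when an A precedes the repeat. This repeat was in 0 of 35 and in 0.0481% of all. The windows of Ogdh (of its 6 windows the one with both elements, plus strand, chr11:6291920-6292219), Acadm (minus strand, chr3:153944594-153944893) and Hadha (minus strand, chr5:30154931-30155230) are shown 5′ to 3′, the first for the lowest value of the cycle, the others as a known receptor target and a paired gene of beta oxidation. Capitals mark the receptor element, here on the opposite strand, and the E-box.
Ogdh: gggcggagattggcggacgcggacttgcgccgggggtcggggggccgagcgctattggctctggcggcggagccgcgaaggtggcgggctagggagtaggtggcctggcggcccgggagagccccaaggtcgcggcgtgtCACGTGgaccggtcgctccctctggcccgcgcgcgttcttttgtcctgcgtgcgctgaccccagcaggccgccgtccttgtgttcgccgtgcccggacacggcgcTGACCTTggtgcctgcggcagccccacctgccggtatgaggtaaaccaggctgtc
Acadm: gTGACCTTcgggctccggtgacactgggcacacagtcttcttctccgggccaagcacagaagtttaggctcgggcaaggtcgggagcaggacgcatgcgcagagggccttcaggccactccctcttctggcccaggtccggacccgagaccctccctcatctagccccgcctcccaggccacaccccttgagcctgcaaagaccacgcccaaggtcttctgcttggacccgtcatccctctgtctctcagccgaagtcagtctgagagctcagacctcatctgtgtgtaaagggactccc
Hadha: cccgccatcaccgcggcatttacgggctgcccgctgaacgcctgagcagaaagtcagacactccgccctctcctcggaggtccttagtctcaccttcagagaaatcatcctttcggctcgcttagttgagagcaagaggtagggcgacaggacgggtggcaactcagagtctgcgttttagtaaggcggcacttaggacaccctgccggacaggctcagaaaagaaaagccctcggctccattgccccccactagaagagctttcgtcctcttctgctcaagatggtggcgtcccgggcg

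In the Ogdh window the receptor element starts at base -5 and the E-box at base -110 from the start, and in the Acadm window the receptor element starts at base -249. The Hadha window holds none of the 3 motifs. Of its 300 bases, 228 also belong to the window of Hadhb, which is read in the opposite direction from a start 273 bases away, so both genes of the trifunctional protein share this stretch. A match is a description of letters only.

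The difference between the chronic and the day 3 effect was tested for all genes as an interaction over the 14 libraries. Limma called 0 of the 40 members and 0.0884% of all genes, and 4 of 40 had an unadjusted p under 0.05, against 14.8% of all genes. Those were Lpl (-0.62), Cd36 (-0.58), Ogdh (-0.42) and Acads (0.37), with adjusted p of 0.222 to 0.325. Both effects have their own controls, but the libraries of the sets were scaled by the authors in separate runs, so levels are not compared between day 3 and the later days.

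The other genes of the same pathways gave few calls. At day 3, 0 of 10 further genes of pyruvate entry, 0 of 13 of the cycle and linked steps, 0 of 18 of fatty acid uptake and transfer and 0 of 12 of beta oxidation and ketone use passed limma's test. In the chronic set 1 of 13 of the cycle and linked steps fell, Me3, a mitochondrial malic enzyme that makes pyruvate from malate. It held 20.3 and 15.9 FPKM at day 7, then 13.3 and 15.6 FPKM at day 14 with follistatin, against 26.8 and 25.6 FPKM in the controls of day 7 and 27.5 FPKM in the control of day 14 (-0.69, SE 0.14, adjusted p = 0.0361). Its call ended with median ratio rescaling (adjusted p = 0.0555). It also ended without any of the 3 controls (0.107 to 0.171), and without follistatin day 7 replicate 2 or either day 14 library (0.0604 to 0.0623). None of the other 3 lists had a called gene, with 10, 18 and 11 tested and medians of 0.03, -0.20 and -0.05. Sdha, the flavoprotein of succinate dehydrogenase, an enzyme of both the cycle and the respiratory chain, missed the threshold at 421 ± 19 against 547 ± 33.7 FPKM (-0.38, adjusted p = 0.0599).

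A further list, called regulators here, mixed regulators of oxidative metabolism with other metabolic genes such as Ucp2, Ucp3 and Ppp1r3a. Of 21 regulators in the chronic set, limma called 2 lower and 0 higher, against 3.27% and 2.24% of all genes, with a median log2 fold change of -0.46, beside -0.07 for the 40 members and -0.09 for all genes tested. The median was -0.35 with median ratio rescaling, and 19 of the 21 were below 0, or 18 after rescaling. The lowest values were those of Nr4a3 (-1.28), at a mean of only 0.35 FPKM with follistatin, and Ppp1r3a (-0.91). The follistatin libraries of 11 of the 21 lay below all controls, and 0 lay above, against 21.5% and 8.96% of all genes. At day 3 the median of 20 tested regulators was 0.02 and 0 were called. This list and its description were made with earlier results of these data known, and the difference between lists was not tested.

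The 2 called regulators were Rxra and Lpin1. Rxra encodes the retinoid X receptor, the partner of PPAR receptors. It held 26.6 and 24.3 FPKM at day 7, then 21.5 and 16.3 FPKM at day 14 with follistatin, against 39.1 and 39.9 FPKM in the controls of day 7 and 39.4 FPKM in the control of day 14 (-0.83, SE 0.16, adjusted p = 0.0328). Lpin1, lipin, a phosphatidate phosphatase that also acts as a coactivator, held 50.9 and 49.4 FPKM at day 7, then 53.5 and 38.5 FPKM at day 14, against 98.0 and 79.4 FPKM in the controls of day 7 and 80.9 FPKM in the control of day 14 (-0.83, SE 0.15, adjusted p = 0.0238). The groups did not overlap in either gene. Both calls ended without any 1 of the 3 controls (0.0732 to 0.149), and that of Rxra without follistatin day 14 replicate 1 (0.0668).

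Among the uncalled regulators, the coactivator gene Ppargc1a (PGC-1alpha) stood at 5.54 and 8.29 FPKM at day 7, then 7.48 and 3.68 FPKM at day 14 with follistatin, against 13.0 and 10.1 FPKM in the controls of day 7 and 9.86 FPKM in the control of day 14. Its groups did not overlap (-0.76, adjusted p = 0.0907), whereas its day 3 value was 0.23. The nuclear receptor genes Ppara (-0.52), Esrrg (-0.54) and Esrra (-0.36) had negative values too, with adjusted p of 0.0853 to 0.206. Tfam, the packaging factor of mitochondrial DNA, stood at 14.9 ± 0.966 and 15 ± 1.69 FPKM. Ppargc1a, Ppara, Esrrg, Esrra and Tfam were named after their values were seen.

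**Figure D4:**
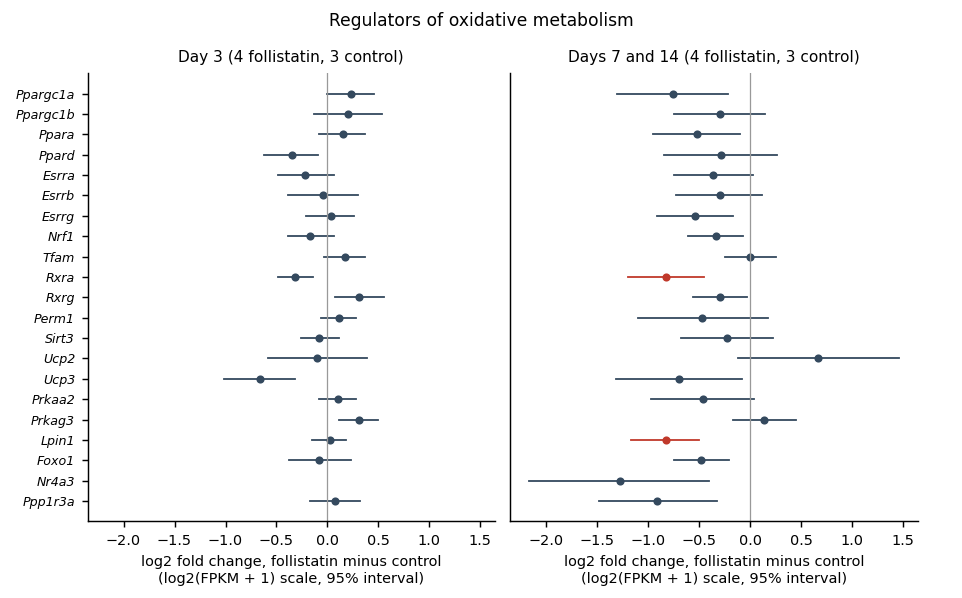
Log2 fold change, follistatin minus control, of the regulators at day 3 (left) and at days 7 and 14 (right) on the log2(FPKM + 1) scale, with 95% intervals from limma; red points are called. In the chronic panel 19 of 21 points lie below 0 and Rxra and Lpin1, both at -0.83, are called; Nr4a3 has no day 3 value because it was under the limit on low values.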

How the data were processed

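FPKM per gene were deposited for each library. The reads were aligned with TopHat to mm10 and FPKM computed with Cuffdiff, per the submitters' processing notes; versions and annotation are not given in the sources used here. The authors' deposited Cuffdiff tables hold log2 fold changes, test scores, p-values and q-values. Of 24386 genes, 27 whose symbols had become dates were left out, as were, from the tests, genes marked HIDATA (4 at day 3, 31 chronic). Day 3 and the chronic set had a model each (limma 3.58.1, R 4.3.3) of log2(FPKM + 1), keeping genes that averaged 1 FPKM or more (eBayes with trend, two-sided, Benjamini-Hochberg over all genes tested, called under 0.05). The fit was also run on simulated data with planted changes of 2-fold or more. Smaller changes, as all estimates of the 40 genes were, were not planted, so that run does not show whether they could be called. The added 1 understates changes of low genes. Depth is unknown, so counting error could not be given. Named by rule are called genes and, per role and comparison, the 3 members with the smallest p; other members are named to account for all 40. Positions and shared exon bases come from GENCODE M21. The members and lists were chosen with earlier results of these data known.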

Additional observations from a re-analysis of the deposited data

Results flagged for a closer look

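In 5 of the 80 groups of 4 follistatin libraries (40 genes at both times), 1 library stood apart by Dixon's gap test at 95%. Chance flags about 1 group in 20. At day 3 Decr1 had 1 low library at 55.7 FPKM, with the others at 64.1 to 65.1 FPKM, and Etfa 1 high library at 205 FPKM. In the chronic set Dlat had 1 high library at 99.9 FPKM, with the others at 83.1 to 85.5 FPKM, and Pdk2 1 high library at 267 FPKM, with the others at 172 to 186 FPKM. Mdh1 had 1 low chronic library at 465 FPKM, with the others at 529 to 534 FPKM.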

How the results depend on the processing

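Under 16 alternatives at day 3 and 22 for the interaction, limma called 0 of the 40 genes, as in the reported fits. In the chronic set, under 18 alternatives, 0 members were called higher, and the count called lower moved from 1 as follows. It was 2 with quantile normalization (Idh3g added), 2 without small RNA genes (Ogdh added) and 7 with all 14 libraries in 1 fit (Pdk2, Idh3a, Idh3b, Idh3g, Ogdh and Cd36 added). Over all genes these fits called 326 of 11047, 598 of 10743 and 1458 of 11306 lower, against 361 of 11047 in the reported fit. The count of members called lower was 0 with the replicate block and 0 with the day 7 libraries alone. Leaving out 1 library gave 0 to 2. Eci1 at day 3, reported at -0.09, ranged from -0.21 to 0.02 with 1 library left out. The median of pyruvate entry in the chronic set was -0.18, and 0.12 without control day 7 replicate 1. The calls of Rxra and Me3 ended with no limit on low values (adjusted p = 0.054 and 0.0601), and those of Rxra, Lpin1 and Me3 with the day 7 libraries alone. The replicate block gave Lpl -0.79 (adjusted p = 0.078) in the chronic set. Libraries of the same number did not deviate together (correlations of -0.06 to -0.03 at day 3 and 0.02 at day 7). Deviations from means of so few libraries are tied to each other, so this check cannot exclude that the numbers pair the samples. Without read depth, no difference can be set against counting error.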
